A study of Mus musculus with 4 samples.

Results

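The mouse genes of the Cip/Kip family (Cdkn1a, Cdkn1b and Cdkn1c) and of the Ink4 family (Cdkn2a, Cdkn2b, Cdkn2c and Cdkn2d) encode the inhibitors of the cyclin-dependent kinases that drive the cell cycle. They were taken by gene symbol from a table of 19171 genes, which held 1 row for each of the 7. RNA had been measured in 4 libraries of primary cells of the calvaria, the flat bones of the skull, which give mixed cultures rich in osteoblast precursors. Donor mice were C57BL/6 pups of postnatal day 10 with the genotype mir17fl/fl:106b-/-, in which the miR-17 cluster is flanked by loxP sites and the miR-106b cluster is missing. There were 2 libraries from cells given an adenovirus with Cre, the recombinase that removes DNA between loxP sites, and 2 from cells given an adenovirus with YFP, a fluorescent protein. The labels state an infection rate above 80% and RNA collection on day 3 after infection. The controls therefore lacked the miR-106b cluster as well, the groups differed in the viral insert together with the deletion, and some cells of the Cre group may have kept the floxed alleles.

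Cyclin-dependent kinases are active when bound to a cyclin. Ink4 proteins bind the kinases CDK4 and CDK6 and keep D cyclins from them. Cip/Kip proteins bind complexes of cyclins with CDK2 and with other kinases. Both families hold cells before S phase by keeping the retinoblastoma protein and its relatives bound to E2F factors, and in bone-forming cells they are studied for their part in the exit from division that comes with differentiation. In human cells, p21 (the product of the gene CDKN1A) and p57 (of CDKN1C) have been reported as targets of miRNAs of the miR-106b cluster.

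The miRNAs of the clusters are shown because their seeds (bases 2 to 8, in capitals) define the matches searched in the inhibitor transcripts. Mature sequences are from RefSeq on GRCm38.p6. The miR-17 cluster lies on the plus strand of chromosome 14, its mature forms between 115043684 and 115044496, and the miR-106b cluster on the minus strand of chromosome 5, between 138165332 and 138165807. The miR-17 seed is shared by 4 of them, which differ outside it:
miR-17-5p: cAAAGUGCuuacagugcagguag
miR-20a-5p: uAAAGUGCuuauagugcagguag
miR-106b-5p: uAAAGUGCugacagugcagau
miR-93-5p: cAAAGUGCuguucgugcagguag

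The miR-92 seed is shared by 1 miRNA of each cluster, and the other seeds occur in the miR-17 cluster alone among these 9 sequences:
miR-92a-3p: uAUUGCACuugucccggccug
miR-25-3p: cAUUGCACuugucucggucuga
miR-18a-5p: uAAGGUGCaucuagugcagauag
miR-19a-3p: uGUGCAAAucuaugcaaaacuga
miR-19b-3p: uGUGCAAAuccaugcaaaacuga

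Seed matches occurred in the 3′ UTRs of 3 of the 7 inhibitor genes, 1 in each. The UTRs were the longest that GENCODE M21 annotates for the table's transcripts, and all are exonic sequence after the stop codon. Each match is printed within 30 bases of its UTR as DNA, with the matched bases in capitals, because they are the sites through which the deleted miRNAs could pair:
Cdkn1a: agacctgaataGCACTTTggaaaaatgagt
Cdkn1c: atctgaaaactGTGCAATgtattgagaaca
Cdkn2b: agtttaataacCACTTTAgaaatttcctac

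The Cdkn1a match, at bases 436 to 442 of a UTR of 1329 bases, pairs with bases 2 to 8 of the miR-17 family (a 7mer-m8 site). The Cdkn1c match, at bases 158 to 164 of 688, is a 7mer-m8 site of the miR-92 family. The Cdkn2b match, at bases 682 to 688 of 755, is a 7mer-A1 site of the miR-17 family, which pairs with bases 2 to 7 and is followed by an A. No match to any of the 4 seeds was found in Cdkn1b (1280 bases), Cdkn2a (264), Cdkn2c (373) or Cdkn2d (563). Among tested genes with a UTR of similar length (the shorter at least 0.8 times the longer), a match to the same family was held by 21.2% of 1827 for Cdkn1a, 6.89% of 1423 for Cdkn1c and 11.8% of 1521 for Cdkn2b. A match describes the reference sequence and does not show that a miRNA binds there.

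**Figure D1:**
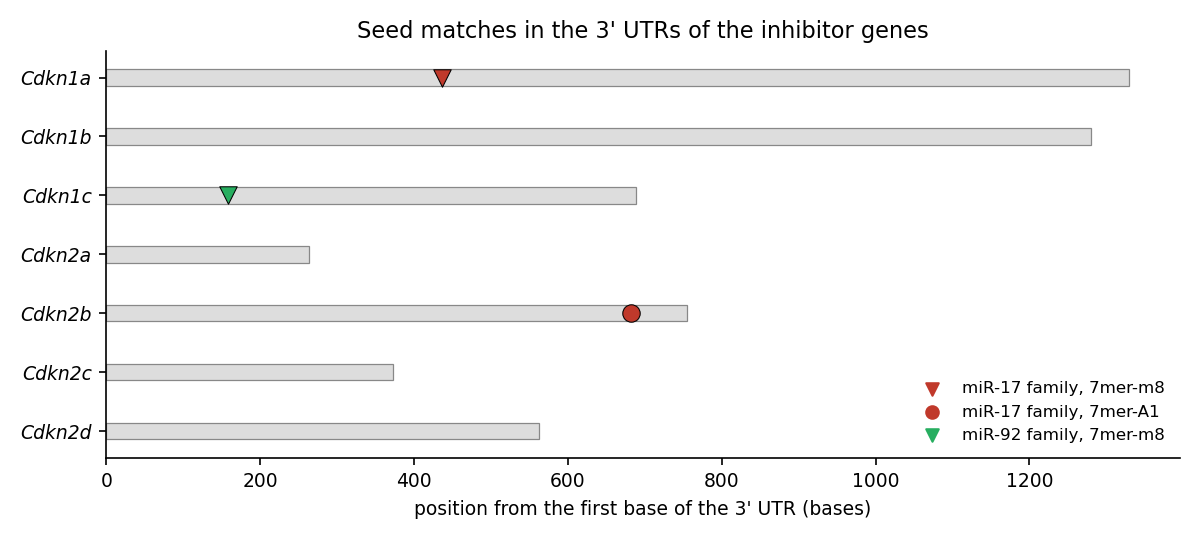
Each grey bar is the 3′ UTR of an inhibitor gene, drawn to scale from its first base in bases, and each symbol is the start of a seed match (triangles 7mer-m8, circle 7mer-A1, red miR-17 family, green miR-92 family). Of the 7 UTRs, 3 hold 1 match each, at base 436 in Cdkn1a, 158 in Cdkn1c and 682 in Cdkn2b.

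With Cre, Cdkn1a and Cdkn1c were higher, Cdkn1b, Cdkn2a, Cdkn2b and Cdkn2c were lower, and Cdkn2d was not called. All 7 genes passed the filter on low values (1 FPKM or more in 2 or more libraries, FPKM being the fragments mapped to a gene scaled to transcript length and to the library's total). Groups were compared with limma on log2(FPKM + 1) over 12046 tested genes, and a gene was called at a Benjamini-Hochberg adjusted p under 0.05. Of the 7, 2 rose and 4 fell, against 16.6% of all tested genes called higher, 16.3% called lower and 32.9% called in either direction. The median log2 change was -0.20 over the 7 and -0.013 over all tested genes. Groups did not overlap in any of the 7, 2 being higher and 5 lower, as in 31.5% and 35.4% of tested genes (66.9% together). The labels do not state whether a group's libraries stem from different cultures or mice, and a p-value here may therefore reflect technical spread alone.

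FPKM columns summed to 458756 to 471021, the 10 most abundant genes held 6.45% to 6.83% of a sum, and 17445 to 17952 genes were above 0. Of the fixed marker genes of bone-forming cells, Col1a1 stood at 1684 to 1778 FPKM, Runx2 at 10.28 to 12.11, Sp7 at 1.81 to 2.43 and Alpl at 1.53 to 2.49. None of these 4 was called, although Alpl was without Cre replicate 2 (log2 change 0.42, limma adjusted p = 0.0307). Those of later stages were near 0, with Ibsp at 0.39 to 0.63 FPKM and Bglap listed at 0 in both YFP libraries and at 1.27 and 0.91 with Cre. Fibroblast markers were high (Thy1 387 to 485 FPKM, Dcn 192 to 215), and 3 of 4 fell with Cre, of which Lum fell by 0.27 on the log2 scale and Dcn and Thy1 were not called in some settings. Markers of skeletal muscle summed to 0.22 to 0.53 FPKM. Those of epithelium (Cdh1, Epcam and Krt5) summed to 0.28 and 0.40 FPKM with YFP and to 0.85 and 1.13 with Cre, each of the 3 being higher in both Cre libraries. None of either list passed the filter, and the part of epithelial cells in the changes of the inhibitor genes was not tested. Mir17hg, the RNA from which the miR-17 cluster is cut, was at 3.29 and 3.91 FPKM with YFP and at 7.35 and 8.49 with Cre. How far that value covers the deleted part is not given in the sources used here, so it does not check the deletion. Mcm7, the replication gene whose intron holds the miR-106b cluster, was at 36.78 and 34.82 FPKM with YFP and at 30.36 and 32.81 with Cre and fell by 0.18 on the log2 scale (limma adjusted p = 0.0265), though 5 of 11 other settings did not call it.

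**Figure D2:**
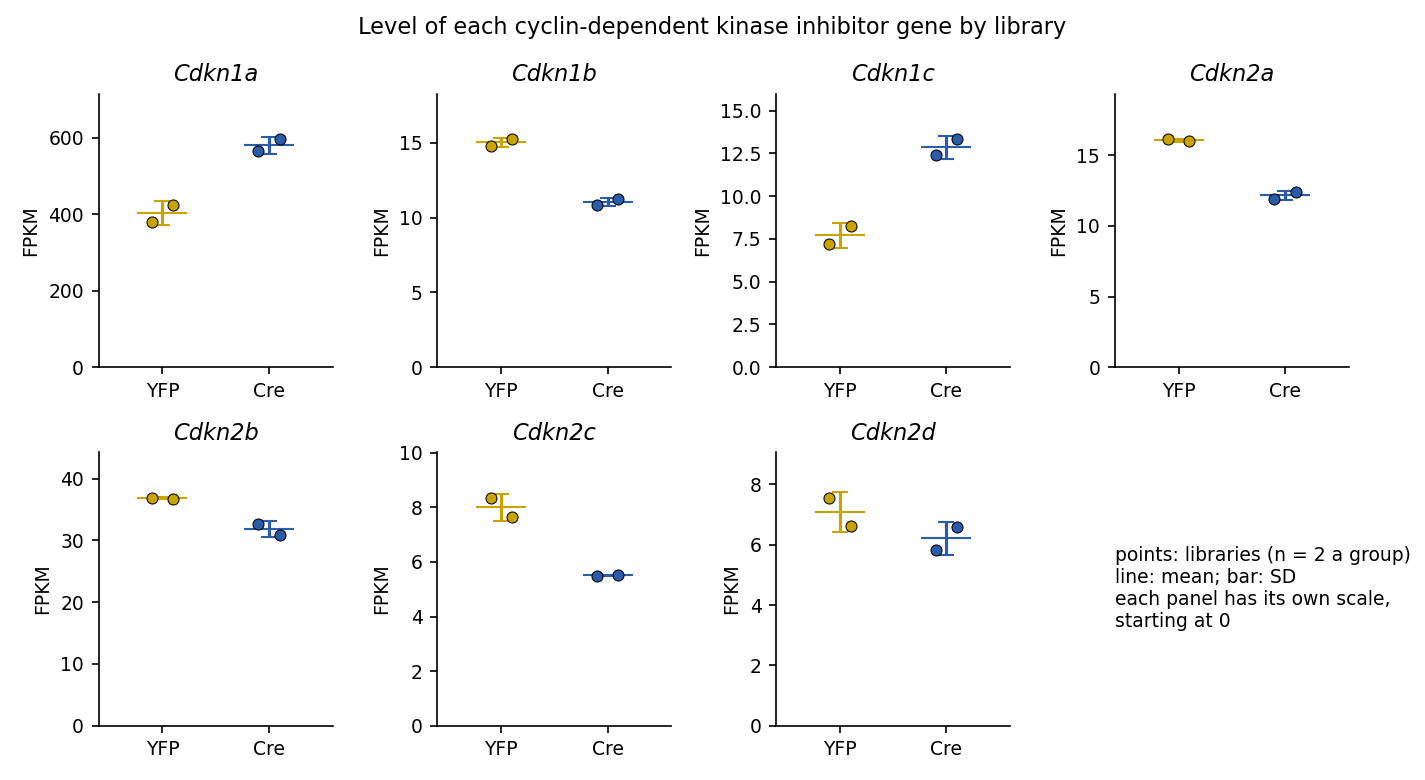
FPKM of each inhibitor gene (y axes, each from 0 and with its own scale) in the 2 YFP and 2 Cre libraries (points), with the mean (line) and SD (bar) of each group. Cdkn1a and Cdkn1c sit higher in both Cre libraries, Cdkn1b, Cdkn2a, Cdkn2b and Cdkn2c lower, and the Cdkn2d groups meet at 6.61 and 6.60 FPKM.

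Cdkn1a (Entrez 12575, chromosome 17) encodes p21, which stops the cell cycle after DNA damage and in senescence. It was at 380.97 and 425.24 FPKM in the YFP libraries and at 565.65 and 596.93 in the Cre libraries. Both Cre values lay above both YFP values, and the 4 possible ratios of a Cre to a YFP library ran from 1.33 to 1.57, beyond the ratio of 1.12 between the YFP libraries. The mean rose from 403.1 ± 31.3 to 581.3 ± 22.1 FPKM (SD, n = 2), a ratio of 1.44 and a log2 change of 0.53 (SE 0.06, 95% interval 0.40 to 0.66, limma adjusted p = 9.78e-05). Of all tested genes, 3.44% had a larger log2 change. In level, Cdkn1a was among the most abundant transcripts of the culture, with 99.3% of genes in the table below it.

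Cdkn1c (Entrez 12577, chromosome 7) encodes p57, an imprinted inhibitor expressed mainly from the maternal allele and needed for normal development of cartilage bones in mice. Its level was 7.20 and 8.24 FPKM with YFP and 12.40 and 13.34 with Cre. The Cre libraries were both higher, by ratios of 1.51 to 1.85, while the YFP libraries differed by a ratio of 1.14. The mean rose from 7.72 ± 0.74 to 12.87 ± 0.66 FPKM, a ratio of 1.67 and a log2 change of 0.67 (SE 0.07, 95% interval 0.52 to 0.82, limma adjusted p = 5.61e-05). That is the largest log2 change among the 7 genes, and 1.99% of all tested genes had a larger one.

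Cdkn1b (Entrez 12576, chromosome 6) encodes p27, the inhibitor that accumulates in resting cells and is destroyed as they enter division. It was at 14.81 and 15.24 FPKM with YFP and at 10.84 and 11.25 with Cre. Its libraries lay close together within each group and apart between them, and the mean fell from 15.03 ± 0.30 to 11.05 ± 0.29 FPKM, a ratio of 0.74 and a log2 change of -0.41 (SE 0.05, 95% interval -0.53 to -0.29, limma adjusted p = 0.000228). The Cip/Kip genes thus moved in both directions. The ratio of Cdkn1c to Cdkn1b was 0.486 and 0.541 with YFP and 1.14 and 1.19 with Cre, so that the order of the pair was turned in both Cre libraries. An exact permutation test of 2 against 2 libraries cannot go below p = 0.333, two-sided, which that ratio reached.

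The Ink4 genes fell or were not called. Cdkn2a (Entrez 12578, chromosome 4) encodes both p16, an Ink4 protein, and the unrelated p19Arf, which stabilises p53, from transcripts with different start exons that the table joins in 1 value. That value was 16.15 and 16 FPKM with YFP and 11.93 and 12.39 with Cre. The groups stood apart, and the mean fell from 16.08 ± 0.11 to 12.16 ± 0.33 FPKM, a ratio of 0.76 and a log2 change of -0.38 (SE 0.05, limma adjusted p = 0.000357).

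Cdkn2b (Entrez 12579, chromosome 4) encodes p15, an inhibitor induced by TGF-β in epithelial cells, and lies beside Cdkn2a. It was at 36.92 and 36.68 FPKM with YFP and at 32.71 and 30.92 with Cre, lower in both Cre libraries. The mean fell from 36.8 ± 0.2 to 31.8 ± 1.3 FPKM, a ratio of 0.86 and a log2 change of -0.20 (SE 0.05, limma adjusted p = 0.00762), but it was not called when Cre replicate 2 was left out (log2 change -0.17, limma adjusted p = 0.115). The next gene of that locus, Mtap, which encodes an enzyme of methionine salvage, was at 62.18 and 64.12 FPKM with YFP and at 58.61 and 61.04 with Cre and was not called (log2 change -0.08, limma adjusted p = 0.228). Dmrta1, on the other side, did not exceed 0.11 FPKM.

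Cdkn2c (Entrez 12580, chromosome 4) encodes p18. It was at 8.36 and 7.64 FPKM with YFP and at 5.50 and 5.52 with Cre. The Cre libraries were nearly equal and both lower, and the mean fell from 8.0 ± 0.51 to 5.51 ± 0.01 FPKM, a ratio of 0.69 and a log2 change of -0.47 (SE 0.06, limma adjusted p = 0.000336). No other inhibitor gene fell further, and 1.88% of all tested genes did.

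Cdkn2d (Entrez 12581, chromosome 9) encodes p19Ink4d. It was at 7.56 and 6.61 FPKM with YFP and at 5.82 and 6.60 with Cre, so that YFP replicate 2 and Cre replicate 2 were almost equal. The log2 change was -0.16 (SE 0.08, 95% interval -0.34 to 0.01, limma adjusted p = 0.131). It was called without YFP replicate 2 (log2 change -0.25, limma adjusted p = 0.0421) and in no other setting, with an adjusted p of up to 0.548.

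**Figure D3:**
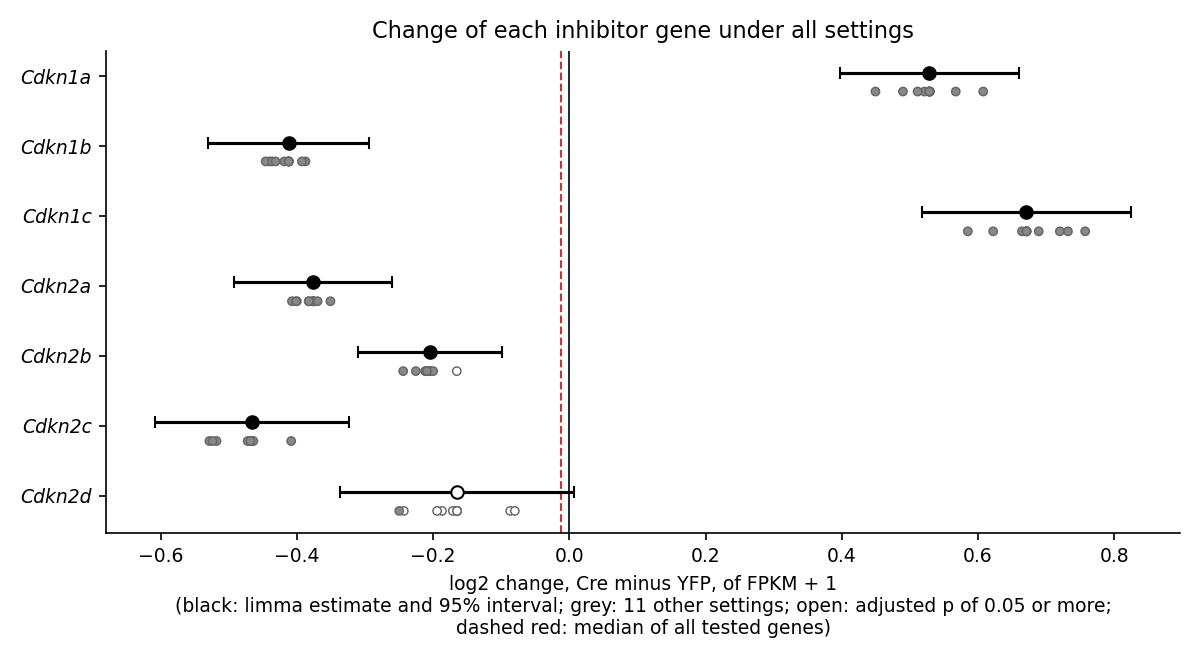
Log2 change with Cre of log2(FPKM + 1) for each inhibitor gene (x axis), as the limma estimate with its 95% interval (black) and under 11 other settings (grey), filled where the adjusted p was under 0.05. Cdkn1a and Cdkn1c lie at 0.53 and 0.67, the others between -0.47 and -0.16, and no gene changes side in any setting.

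FPKM is scaled to transcript length, so levels can be set side by side. In the YFP libraries Cdkn1a came first, followed by Cdkn2b, Cdkn2a and Cdkn1b, whose ranges did not overlap. Below them the ranges of Cdkn2c and Cdkn1c overlapped, as did those of Cdkn1c and Cdkn2d. In the Cre libraries Cdkn1c (12.40 and 13.34 FPKM) came next after Cdkn2b, with its lower library 0.01 FPKM above the higher one of Cdkn2a, and Cdkn2c came last.

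Cdkn1a held 80.7% and 82.5% of the summed FPKM of the 7 genes with YFP and 87.7% and 88.2% with Cre. The sum over all 7 was 472 and 516 FPKM with YFP and 645 and 677 with Cre, higher in both Cre libraries. Without Cdkn1a the remaining 6 summed to 91.0 and 90.4 with YFP and to 79.2 and 80.0 with Cre, lower in both. The sum of Cdkn1b and Cdkn1c, which moved in opposite directions, overlapped between groups (22.01 and 23.48 FPKM with YFP, 23.24 and 24.59 with Cre).

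The kinases and cyclins that the families act on give the scale of these levels. The Cip/Kip sum was 403.0 and 448.7 FPKM with YFP and 588.9 and 621.5 with Cre, while Cdk1 and Cdk2 together fell from 53.8 and 49.6 to 40.3 and 41.7. The Cip/Kip sum was thus 7.50 and 9.05 times that of the 2 kinases with YFP and 14.6 and 14.9 times with Cre. Cdk4 and Cdk6 were not counted in that ratio. The Ink4 sum went from 69.0 and 66.9 FPKM to 56.0 and 55.4, and that of Cdk4 and Cdk6 from 275.4 and 271.5 to 219.6 and 213.0. Their ratio was 0.251 and 0.247 with YFP and 0.255 and 0.260 with Cre, with means in a ratio of 1.04. Each of these sums and ratios had groups that did not overlap, as had 66.9% of all tested genes taken singly. Without overlap, the exact permutation test of 2 against 2 libraries always gives its smallest two-sided p, 0.333. Each sum and ratio therefore reached that p. In bulk RNA, fewer cells that express a gene and less RNA per cell cannot be told apart.

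**Figure D4:**
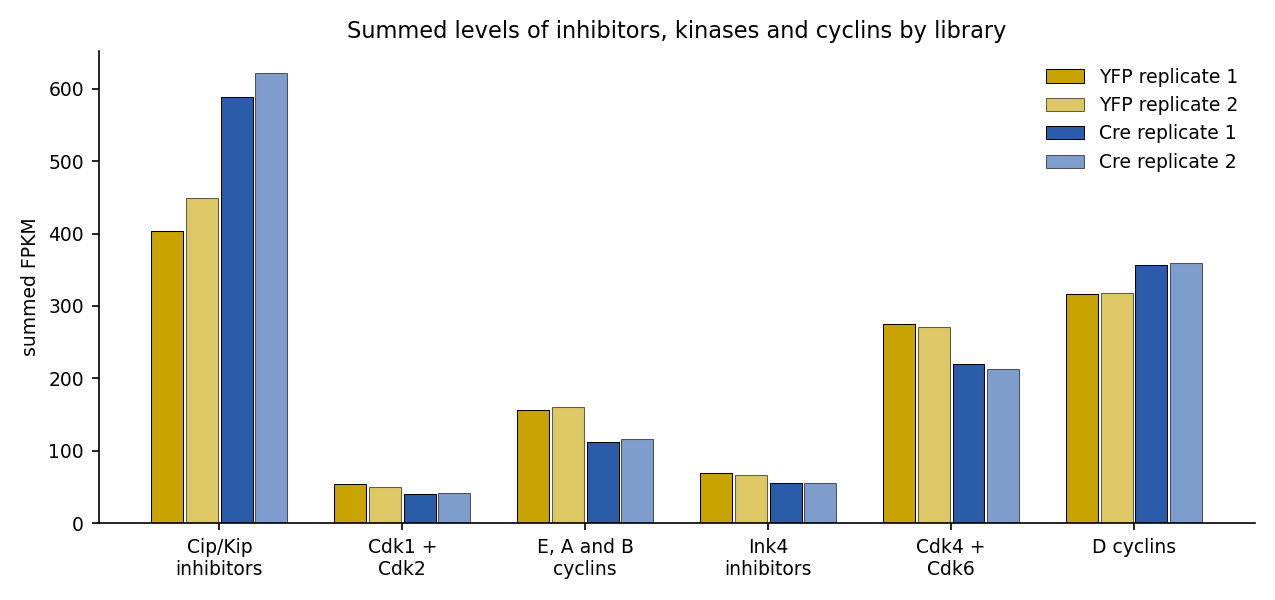
Summed FPKM (y axis, from 0) of the Cip/Kip and Ink4 inhibitor genes and of the kinases and cyclins they act on, 1 bar per library (YFP yellow, Cre blue, replicate 2 paler). The Cip/Kip sum and the D cyclins are higher in both Cre libraries, and the Ink4 sum, both kinase sums and the E, A and B cyclins are lower in both.

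Of the 7 tested kinases and cyclins that Cip/Kip proteins act on, 6 fell and 0 rose, and the median log2 change was -0.41. For this and each list below, the shares over all tested genes were 16.3% called lower and 16.6% called higher. Ccna2, which encodes the cyclin that partners CDK2 during DNA replication, was at 45.69 and 46.07 FPKM with YFP and at 29.86 and 30.47 with Cre, and fell by 0.59 on the log2 scale (limma adjusted p = 6.80e-06). The mitotic cyclin genes Ccnb1 and Ccnb2 fell by 0.55 and 0.57, Cdk1, the mitotic kinase gene, by 0.37 and Ccne2, a cyclin of the entry into S phase, by 0.41. Cdk2 fell by 0.21 (limma adjusted p = 0.0128) and was not called when YFP replicate 1, Cre replicate 1 or Cre replicate 2 was left out (adjusted p = 0.056, 0.109 and 0.0669). Ccne1 was not called (log2 change -0.09, limma adjusted p = 0.182). Ccna1, a cyclin of germ cells, was below the filter.

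Of the 5 genes on which Ink4 proteins act, 1 rose and 1 fell (median log2 change 0.03). Cdk4 was at 272.9 and 269.3 FPKM with YFP and at 216.97 and 210.57 with Cre, and fell by 0.34 on the log2 scale (limma adjusted p = 0.000243). Ccnd1, which encodes cyclin D1, was at 141.4 and 145.47 FPKM with YFP and at 185.09 and 186.43 with Cre, and rose by 0.37 (limma adjusted p = 0.000124). Ccnd1 thus moved up with Cdkn1a, and their ratio was 2.69 and 2.92 with YFP and 3.06 and 3.20 with Cre. Ccnd2, Ccnd3 and Cdk6 were not called (log2 changes 0.03, -0.08 and 0.05). Cdk6 stood at 2.22 to 2.58 FPKM, far below Cdk4.

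Among 24 proliferation markers, 21 fell and 0 rose (median log2 change -0.31). Plk1, Birc5, Mki67 and Bub1, all used as signs of dividing cells, fell by 0.51, 0.49, 0.52 and 0.50 on the log2 scale. The summed E, A and B cyclins and 5 inhibitor genes (4 of them called) were lower in both Cre libraries, and Cdkn1a and Cdkn1c were higher. Among all tested genes, 35.4% were lower and 31.5% higher without overlap. Downstream of the kinases, of 10 tested pocket protein and E2F genes 0 rose and 1 fell. Rbl1, which encodes the pocket protein p107, had means of 8.40 ± 0.21 and 6.07 ± 0.51 FPKM and fell (log2 change -0.41, limma adjusted p = 0.00094), while Rb1, the retinoblastoma gene, was at 9.43 ± 0.86 and 9.12 ± 0.34 (limma adjusted p = 0.682). E2f7, E2f1 and E2f6 had the next smallest p and were not called (log2 changes -0.18, 0.12 and 0.08).

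Ubiquitin ligases set the protein levels of p21 and p27, which RNA does not show. Of 15 tested genes listed for these ligases, 2 rose and 5 fell, against 16.6% and 16.3% of all tested genes (median log2 change -0.04). Skp2, whose product marks p27 for destruction, was at 11.98 and 11.71 FPKM with YFP and at 7.96 and 8.06 with Cre, and fell by 0.51 on the log2 scale (limma adjusted p = 6.77e-05). Its cofactor gene Cks1b fell by 0.31. Pcna, the replication clamp on which p21 is marked for destruction, fell by 0.23. It is not a ligase gene and is also counted among the proliferation markers. Cdc20, an activator of the mitotic ligase, fell by 0.35.

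Of 12 other genes listed beside the inhibitors, 2 rose and 7 fell (median log2 change -0.19). Only some of them are named for cyclin-dependent kinases. Cdkn3, which shares the name of the family but encodes a phosphatase that acts on CDK2, was at 19.92 and 19.91 FPKM with YFP and at 14.54 and 12.37 with Cre and fell (log2 change -0.54, limma adjusted p = 0.000321). Pkmyt1, a kinase gene that holds CDK1 inactive, fell by 0.39 and Cdkn2aipnl by 0.22, the latter not called in the absence of Cre replicate 2 (limma adjusted p = 0.0922). Lats2, a kinase gene of the Hippo pathway, rose by 0.36.

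**Figure D5:**
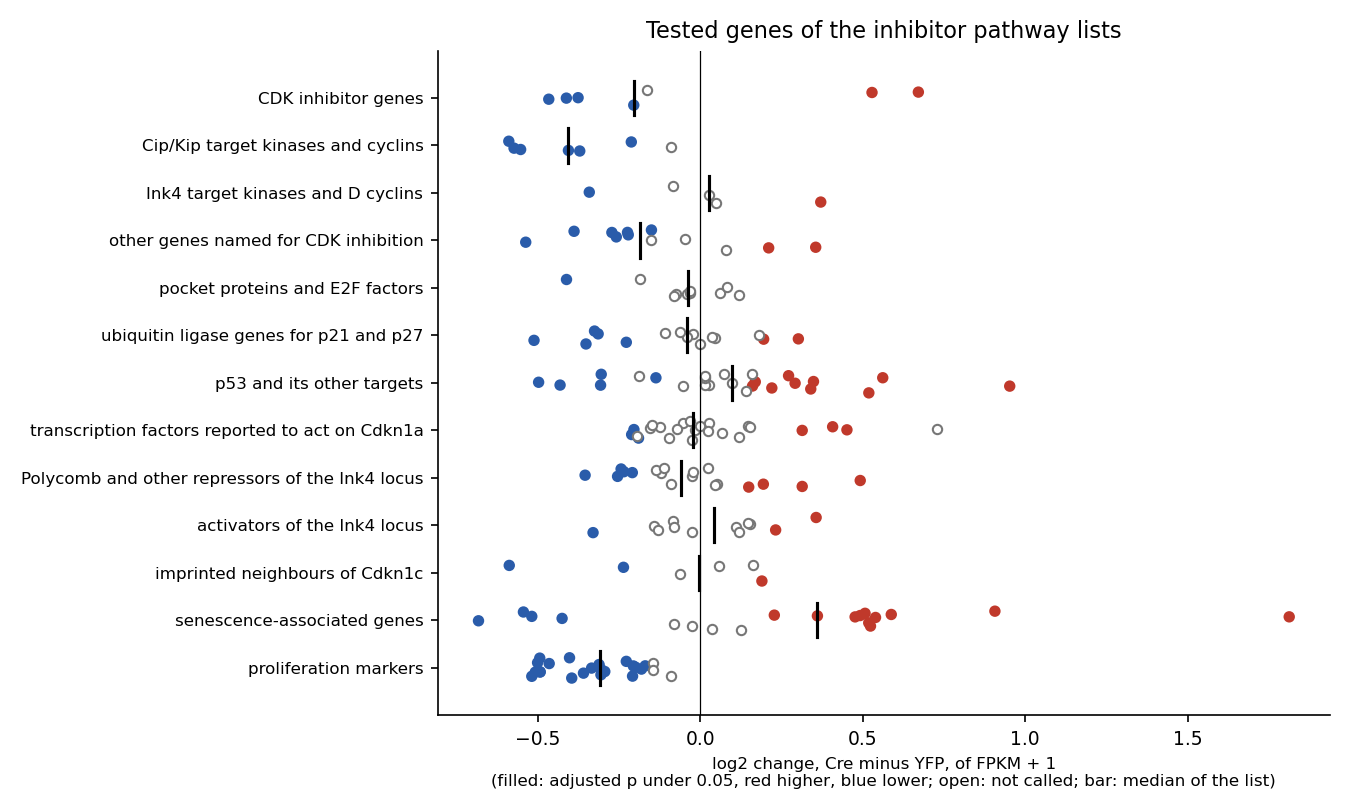
Log2 change with Cre of log2(FPKM + 1) (x axis) of each tested gene in the inhibitor family and in 12 other lists (rows). The lists hold partners, regulators, chromosomal neighbours and markers. Points are filled where the adjusted p was under 0.05 (red higher, blue lower), and a bar marks the median of each list. The inhibitor genes fall on both sides, from -0.47 to 0.67, the proliferation markers all lie below 0, and the senescence list has a median of 0.36.

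Trp53, the gene of p53, was at 93.93 and 101.64 FPKM with YFP and at 95.93 and 103.55 with Cre, ranges that overlapped (log2 change 0.03, limma adjusted p = 0.73). Of 25 tested genes of p53 and its targets other than Cdkn1a, 10 rose and 5 fell (median log2 change 0.10). Mdm2, which encodes the ligase of p53, rose by 0.52 on the log2 scale, Sfn, an inhibitor of mitosis, by 0.95, Perp by 0.56 and Ei24 by 0.35. The 5 that fell were Mdm4, Sesn1, Gadd45a, Bbc3 and Bax (log2 changes -0.50, -0.43, -0.30, -0.31 and -0.14). Of 24 tested genes for transcription factors reported to act on Cdkn1a, 3 rose and 3 fell, against 16.6% and 16.3% of all tested genes. Their median log2 change was -0.02. Cebpa rose by 0.45 and Id1 by 0.31, and Sp3 fell by 0.21. Without Cre replicate 2, Cebpa, Id1 and Sp3 were not called (limma adjusted p = 0.056, 0.109 and 0.0745).

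The promoters of Cdkn1a are shown because its p53 target group and its GC-rich start can be read in them. RefSeq gives the gene 2 starts on the plus strand of chromosome 17 (GRCm38.p6), and the table joins their transcripts in 1 value. The window of the upstream start, chr17:29090729-29091028, from 250 bases before to 50 bases after it, has 54.7% GC and 2 CpG dinucleotides. In capitals is a match to the p53 consensus element with at most 1 mismatch in 20 bases and no spacer, which begins 51 bases before the start:
Cdkn1a upstream start: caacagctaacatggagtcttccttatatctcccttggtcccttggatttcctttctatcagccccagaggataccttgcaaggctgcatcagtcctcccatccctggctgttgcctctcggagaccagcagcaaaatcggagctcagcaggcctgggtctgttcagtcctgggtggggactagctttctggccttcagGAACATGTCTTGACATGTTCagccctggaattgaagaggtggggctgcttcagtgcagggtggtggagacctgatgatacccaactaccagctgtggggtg

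The window of the downstream start, chr17:29093519-29093818, has 64.7% GC, 23 CpG dinucleotides and 2 GC boxes (GGGCGG, in capitals):
Cdkn1a downstream start: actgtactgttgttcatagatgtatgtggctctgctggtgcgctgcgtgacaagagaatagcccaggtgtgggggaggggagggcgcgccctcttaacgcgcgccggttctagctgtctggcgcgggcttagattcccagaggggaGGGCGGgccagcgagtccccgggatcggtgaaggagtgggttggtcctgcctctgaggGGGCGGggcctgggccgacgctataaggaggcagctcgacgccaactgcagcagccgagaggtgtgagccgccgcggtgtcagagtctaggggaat

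Of 32851 promoter windows of the same length in the table, 29 (0.0883%) held such a p53 match, searched in a form that reads alike on both strands, and 35.7% held GGGCGG on either strand. The p53 search was chosen after this sequence had been seen. For the other inhibitor genes with a window, GGGCGG occurred in at least 1 window of each (Cdkn1b, Cdkn2a, Cdkn2b, Cdkn2c and Cdkn2d), TATAAA in none and CACGTG in 1 window of Cdkn2c, against 13.6% and 7.15% of all windows for the last 2 motifs on either strand. The p53 match was found in no other inhibitor window. A match describes the letters of these windows and not the binding of a factor.

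The Ink4 locus is held silent by Polycomb proteins in young cells. Of 18 tested genes for Polycomb members and other repressors of the locus, 4 rose and 5 fell (median log2 change -0.06). Ezh2, the methyltransferase of the complex, had means of 18.03 ± 0.49 and 13.9 ± 0.29 FPKM and fell (log2 change -0.35, limma adjusted p = 0.000491), while Cdkn2a and Cdkn2b fell as well. Rnf2 and Bmi1 fell by 0.25 and 0.21 on the log2 scale, calls lost without Cre replicate 2 (limma adjusted p = 0.0977 and 0.0991). Tbx3, a repressor of the locus, rose by 0.49. Of 12 tested activators of the locus, 2 rose and 1 fell, against 16.6% and 16.3% of all tested genes, with a median of 0.04. Junb and Jun rose by 0.36 and 0.23, the latter not called without Cre replicate 2 (limma adjusted p = 0.0505), and the demethylase gene Kdm6a fell by 0.33. Smad3, a mediator of TGF-β, was not called (log2 change 0.15, limma adjusted p = 0.0637), but it was without YFP replicate 1 (0.21, adjusted p = 0.0168), and its change was 0.085 without YFP replicate 2.

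Cdkn1c lies in an imprinted region. Of its 10 listed neighbours there, 6 were tested, 1 rose and 2 fell (median log2 change -0.0028). Phlda2 and Slc22a18, which like Cdkn1c are expressed from the maternal allele, did not exceed 0.58 FPKM and were not tested. Phlda2 was at 0.11 and 0.15 FPKM with YFP and at 0.48 and 0.37 with Cre. Slc22a18 was at 0.33 and 0.48 with YFP and at 0.53 and 0.58 with Cre. The other neighbours below the filter were likewise higher in both Cre libraries. More genes of the whole table were above 0 in those libraries (17952 and 17891) than with YFP (17452 and 17445). How many of all genes below the filter were higher with Cre was not counted. Ascl2 was at 0.23 and 0.13 FPKM with YFP and at 0.61 and 0.45 with Cre, and Kcnq1 did not exceed 0.06. Kcnq1ot1, the antisense RNA of the paternal allele that silences the region, was at 1.17 and 1.41 FPKM with YFP and at 1.44 and 1.32 with Cre. H19, a maternally expressed RNA of the adjoining region, was at 279.5 and 300.66 FPKM with YFP and at 194.78 and 190.35 with Cre and fell (log2 change -0.59, limma adjusted p = 1.44e-05), opposite in direction to Cdkn1c. Nap1l4 fell by 0.24. Igf2, a growth factor gene of the paternal allele, was higher by 0.19, a call lost in 5 of 11 other settings (limma adjusted p = 0.0298, and up to 0.217). Osbpl5 was not called (log2 change 0.16, limma adjusted p = 0.0611), but it was without YFP replicate 1 (0.24, adjusted p = 0.00812) and with a mean FPKM of 5 or more required (adjusted p = 0.046), and its change was 0.082 without YFP replicate 2.

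Inhibitors of these kinases are among the genes by which senescent cells are recognised. Of 19 tested senescence-associated genes, 11 rose and 4 fell (median log2 change 0.36). Ccl2, a chemokine, rose by 1.81, the protease gene Mmp3 by 0.91 and Igfbp3, which encodes a binding protein of insulin-like growth factors, by 0.54. Hmgb2, a chromatin protein gene that is lost in senescence, fell by 0.68. The others that fell were Lmnb1, Hmgb1 and Mki67 (log2 changes -0.54, -0.43 and -0.52), the last also counted among the proliferation markers. The list thus joins genes expected to move in different directions, and whether cells were senescent was not tested. Cdkn2a, one of whose products, p16, is a common marker of senescence, fell in the same libraries by 0.38. That value joins the transcripts of p16 and p19Arf, so the change of p16 RNA alone cannot be read from it. Of 3 tested macrophage markers, 2 rose and 0 fell, and the 5 listed summed to 86.2 to 88.4 FPKM with YFP and to 114 to 122 with Cre. Lyz2 rose by 0.39 and Csf1r by 0.33, the second not called without Cre replicate 2 (limma adjusted p = 0.0931), and Cd68 had a log2 change of 0.69 (limma adjusted p = 0.0552). Cd68 was called in 6 of 11 other settings, among them the replicate block (limma adjusted p = 0.000213) and either YFP library left out (log2 changes 0.48 and 0.89, adjusted p = 0.000957 and 1.16e-05). Ptprc stood at 0.27 to 0.37 FPKM, Adgre1 at 0.54 to 0.96, and none was at 0 in all libraries. Endothelial markers summed to 3.28 to 3.33 and 3.83 to 3.88 FPKM, with 0 of 2 tested called, and of 3 chondrocyte markers Acan fell (log2 change -0.53) and 0 rose, with Col2a1 at 97.51 to 112.48 FPKM and called in 4 of 11 other settings, among them without YFP replicate 2 (log2 change -0.19, limma adjusted p = 0.0122). The part of these cells in the changes of the inhibitor genes was not tested.

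The genes with profiles most like those of the inhibitor genes were found by the Euclidean distance between log2(FPKM + 1) profiles, centred on the YFP mean, over 4 libraries, with genes of mean FPKM under 5 left aside. Nearest to Cdkn1a were Gprc5a (distance 0.0064), Serpinb2 (0.036) and Glrx (0.053). Near Cdkn1c were S100a13 (0.016) and Gpnmb (0.043), and nearest to Cdkn1b were 2700094K13Rik (0.028), Lbr (0.034) and Elovl6 (0.035). For the Ink4 genes they were Kcne4, Ctsc and Tacc3 for Cdkn2a (0.014 to 0.022) and Efr3a, Ubn1 and Timm21 for Cdkn2b (0.0084 to 0.013). For Cdkn2c they were Fbxo5, Stard4 and Epyc (0.026 to 0.031), and for Cdkn2d Apex1, Cxx1b and Cmtm7 (0.036 to 0.039). With 4 libraries, likeness of profile says little beyond a change of the same size.

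No stretch of 30 bases in the transcripts of the 7 genes occurred, base for base and on the same strand, in another gene's transcript in GENCODE M21. Near matches, the opposite strand and sequence outside annotated transcripts were not searched, so where reads fell is not shown. In the same annotation Cdkn1a and Cdkn1c, the genes that rose, each overlap a gene on the opposite strand (AC167363.2 and Gm44732). That overlap is of whole gene spans, and shared exon bases were not counted. The use of strand is not given in the sources used here. Any reads of these partners from shared exon bases could therefore not be told apart from those of Cdkn1a and Cdkn1c.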

How the data were processed

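RNA from 2 libraries of YFP and 2 of Cre adenovirus was measured. The labels' protocols give polyA selection (input 1 ug RNA) and BGISEQ-500 sequencing in single-end mode, 30 M reads being planned. The authors deposited FPKM values to 2 decimals. Per the submitters' processing notes, Bowtie 02.2.5 and mm8 were used. How FPKM was computed, on which annotation and whether by strand, is not given in the sources used here. Columns were assigned by their number, which matches 1 sample's description. Read counts are not used here, so the depth is unknown.

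Genes that reached 1 FPKM in 2 or more libraries were tested as log2(FPKM + 1) with limma 3.58.1 (R 4.3.3, trend and robust, two-sided, Benjamini-Hochberg over 12046 genes). Log2 changes on that scale understate those of low genes. Summed levels were compared with exact permutation tests (scipy 1.17.1).

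Alternatives were a pseudocount of 0.1, no filter, a mean FPKM of at least 5, median-of-ratios and sum scaling, each library left out, a replicate block, and limma without trend and robust. The members and lists were chosen with earlier results of these data known. The text names all 7 members, up to 4 genes of each list with the smallest p, members of lists of 8 or fewer, the 3 nearest profiles and the cluster hosts, apart from some genes that are not reported here. GENCODE M21 and RefSeq are on GRCm38, another build than mm8, so coordinates are given only for sequences from RefSeq.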

Additional observations from a re-analysis of the deposited data

How the results depend on the processing

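Direction was kept for each of the 7 inhibitor genes in all 11 alternatives, and 75 of 77 values stayed on the same side of the threshold. The exceptions were Cdkn2b without Cre replicate 2 (log2 change -0.17, limma adjusted p = 0.115) and Cdkn2d without YFP replicate 2 (-0.25, adjusted p = 0.0421). With 1 library left out, the log2 changes ran from -0.24 to -0.17 for Cdkn2b and from -0.25 to -0.080 for Cdkn2d. Over all alternatives those of Cdkn1a ran from 0.45 to 0.61 (limma adjusted p 2.62e-07 to 0.00802) and those of Cdkn1c from 0.59 to 0.76. The count of called genes, 3961, was 1872 to 3560 with 1 library left out, 1872 without Cre replicate 2 and 2384 without Cre replicate 1. The lone library is then assumed to vary like the other group. The replicate block gave 3533 called genes. Deviations of same-numbered libraries correlated at -0.03, the labels tie the numbers to no shared animal or day, and the block changed no call of an inhibitor gene. Among genes named beside them, Cdk6 (-0.017 without YFP replicate 2, and up to 0.12 with another library left out) and Col1a1 (0.00020 without YFP replicate 1, and down to -0.059) changed sign, neither being called. The cause was not tested. Depth limits no value by a known amount here, because FPKM to 2 decimals gives no counts.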
